A study of Mus musculus with 4 samples.

Results

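Chemokines are small secreted or membrane-anchored proteins that guide leukocytes along a gradient by way of G-protein-coupled receptors. The set described here holds 10 chemokine genes in Hepa1-6 mouse hepatoma cells, an established line, out of 54838 genes listed in each file: Ccl5, Ccl17, Ccl22, Cxcl10, Cxcl16, Cx3cl1, Ccl2, Ccl7, Cxcl1 and Cxcl5. They are named genes found by symbol, and they were chosen by their RNA levels in these libraries, as chemokines that the tumour cells express, with the difference between the groups already known. Their levels are therefore a description, and how many of them changed supports nothing by itself.

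Total RNA was sequenced from 2 libraries labelled NC, wild type for Acvr2a, and 2 labelled KO, in which Acvr2a was knocked out; all 4 come from cultured Hepa1-6 cells without a stated treatment. Acvr2a encodes a type II receptor for activin. The design text calls the knockout cells subclones, and neither it nor the labels say whether KO 1 and KO 2 are separate subclones or cultures of one, so the knockout and the choice of subclone cannot be told apart. The series title asks about lactate, glycolysis and how regulatory T cells are attracted, and chemokines made by tumour cells are one route by which T cells and myeloid cells reach a tumour.

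CC and CXC chemokines are named for the spacing of their first cysteines, and most are secreted. Ccl17 and Ccl22 bind CCR4, a receptor of regulatory and type 2 helper T cells, Ccl5 attracts T cells among other leukocytes, Cxcl10 binds CXCR3 of activated T cells, and Cxcl16 binds CXCR6. Ccl2 and Ccl7 bind CCR2 and draw monocytes, and Cxcl1 and Cxcl5 bind CXCR2 and draw neutrophils. Cx3cl1 (fractalkine) binds CX3CR1 of both monocytes and effector lymphocytes. Cxcl16 and Cx3cl1 are made as transmembrane proteins and released by shedding. The grouping below follows this: 5 members attract mainly T cells, 4 mainly myeloid cells and 1 both.

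Libraries held between 11597923 and 13910582 counts. The total Acvr2a RNA was 1.39, 1.61, 1.21 and 1.47 TPM (a level scaled by gene length and library size) in NC 1, NC 2, KO 1 and KO 2. Its log2 fold change was -0.21 (SE 0.20, edgeR quasi-likelihood, adjusted p = 0.433), so this total does not check the labels and the group names follow them. Of 19 leukocyte markers, 8 were at 0 in every library, among them Cd3e and Cd8a, and the pan-leukocyte marker Ptprc had 0 to 2 counts. The summed level of the list without Cd68 was 0.97 and 1.23 TPM in NC and 2.39 and 2.12 TPM in KO. Cd68, which encodes a lysosomal protein, was the exception, at 24.0 and 27.7 TPM in NC and 55.5 and 67.6 TPM in KO (log2 fold change 1.20, SE 0.12, adjusted p = 1.34e-08); its part in the chemokine results was not tested. Of the 8 hepatoma or hepatocyte markers, Alb, Trf, Krt8 and Krt18 had NC means from 360.8 to 1022 TPM and Afp 163.8 TPM, while Apoa1 (2.29 TPM) and Apoa2 (6.61 TPM) were low and Ttr had at most 1 count. In KO Alb and Trf rose (log2 fold change 0.41 and 0.54) and Afp, a fetal liver protein, fell (-1.21). The 5 endothelial markers summed to between 0.36 and 1.15 TPM per library, and the 6 fibroblast and stellate markers to 0.09 and 0.16 TPM in NC and 0.63 and 0.68 TPM in KO.

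Promoter sequence is shown for 3 members that rose, a myeloid attractant and 2 T-cell attractants, because their windows differ in the motifs they hold. RefSeq promoter windows on GRCm38.p6 matched 5 of the 10 members (Ccl17, Ccl22, Cxcl10, Cxcl1 and Cx3cl1). The 250 bases before each RefSeq start were searched on both strands for a kappaB-like motif (GGGA, any pair of bases, then TTCC), an interferon response motif (GAAA, any pair of bases, then GAAA) and the AP-1 motif TGANTCA. Only the part before the GENCODE gene start is printed, 5′ to 3′ on the gene's strand, in lower case with matches in capitals.
Cxcl1, chr5:90890995-90891240, plus strand: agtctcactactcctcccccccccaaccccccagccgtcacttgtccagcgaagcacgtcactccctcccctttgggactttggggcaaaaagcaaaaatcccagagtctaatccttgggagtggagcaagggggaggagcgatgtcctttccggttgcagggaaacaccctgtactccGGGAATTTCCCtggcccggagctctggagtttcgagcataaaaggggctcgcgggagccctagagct
Cxcl10, chr5:92348890-92349139, minus strand: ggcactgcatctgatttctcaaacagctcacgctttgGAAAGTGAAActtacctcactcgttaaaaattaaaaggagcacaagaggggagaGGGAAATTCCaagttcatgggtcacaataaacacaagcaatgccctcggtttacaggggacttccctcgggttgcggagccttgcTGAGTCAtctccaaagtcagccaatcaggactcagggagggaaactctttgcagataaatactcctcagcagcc
Ccl17, chr8:94810203-94810452, plus strand: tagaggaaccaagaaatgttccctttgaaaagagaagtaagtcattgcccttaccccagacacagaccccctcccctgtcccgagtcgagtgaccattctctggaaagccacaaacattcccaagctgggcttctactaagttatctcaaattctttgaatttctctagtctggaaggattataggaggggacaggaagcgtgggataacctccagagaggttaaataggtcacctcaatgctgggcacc

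The Cxcl1 window held the kappaB-like motif on both strands at 1 place, beginning 71 bases before the start. In the Cxcl10 window there was 1 match to each motif: interferon response 213 bases before the start, kappaB-like 159 and AP-1 74. No match to these 3 motifs was found in the windows of Ccl17, Ccl22 or Cx3cl1. Among all 32851 windows of this length, 1.21% held the kappaB-like motif, 2.98% the interferon response motif and 6.75% the AP-1 motif. A match is a run of letters and not a shown binding site.

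The order of the members by level differed between the groups. In NC, Cxcl5 (57.1 ± 10.8 TPM, SD, n = 2) and Cx3cl1 (55.5 ± 3.91) had the highest means and their ranges overlapped. Below them came Cxcl16 (36.4 ± 3.08), Cxcl10 (35.0 ± 1.37) and Ccl2 (34.8 ± 0.76), whose neighbours in the order overlapped, then Cxcl1 (32.4 ± 0.49), Ccl5 (11.2 ± 1.69) and Ccl17 (3.06 ± 0.95), each apart from the next. In KO, Cx3cl1 (92.1 ± 4.12 TPM, SD, n = 2) stood first and Ccl2 (64.7 ± 4.17) second, without overlap. Cxcl10 (54.2 ± 2.64), Ccl5 (48.2 ± 7.22), Cxcl1 (43.8 ± 4.35) and Cxcl16 (43.1 ± 0.69) followed with each range overlapping the next, and Cxcl5 (35.2 ± 0.87) had moved from rank 1 to rank 7. Ccl17 (9.37 ± 0.81) was eighth in both groups, and Ccl22 and Ccl7 were at or near 0 in both.

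**Figure D1:**
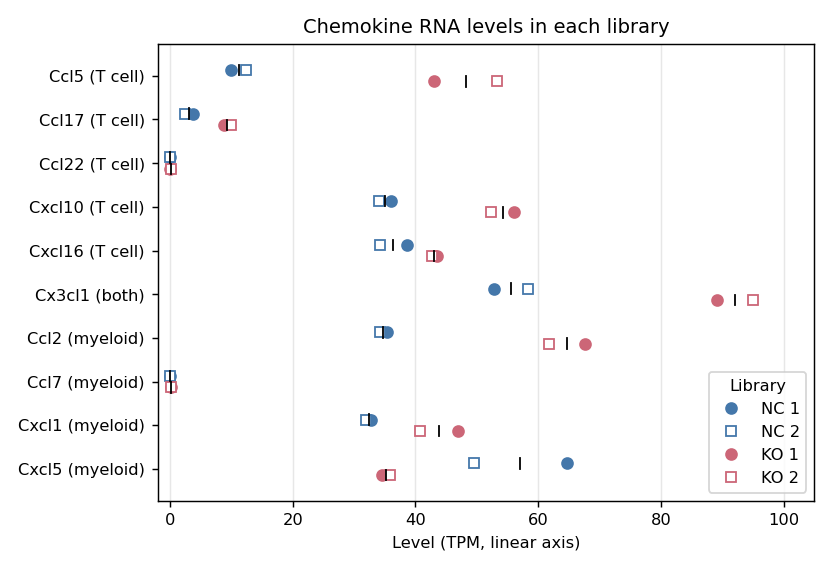
Level of each chemokine gene in TPM (x axis, linear) in NC 1, NC 2, KO 1 and KO 2, with the class of attracted cell beside each name; black ticks are group means. KO points lie to the right of NC points for Ccl5, Ccl17, Cxcl10, Cxcl16, Cx3cl1, Ccl2 and Cxcl1, and to the left for Cxcl5, while Ccl22 and Ccl7 sit at or near 0.

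Of the 10 members, 8 passed the filter on low counts and were tested with all other genes by edgeR's quasi-likelihood test. In KO 6 rose (Ccl5, Ccl17, Cxcl10, Cx3cl1, Ccl2, Cxcl1), 1 fell (Cxcl5) and Cxcl16 did not pass an adjusted p of 0.05. Across the 12510 genes tested, 37.9% passed, 19.7% higher and 18.2% lower in KO, and the members' count is given beside this background without being read against it. The CPM values (counts scaled to library size) of the 2 groups did not overlap for the 8 tested members, as for 69.4% of all genes tested. In bulk RNA, a change in the share of cells that make a chemokine and a change in RNA per cell cannot be told apart. Nothing says that replicate libraries came from separate cultures, so p-values measure the spread between these libraries, which may be technical. The test also draws each gene's spread toward that of genes in general. A standard error or interval is therefore not that gene's own replicate spread alone.

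Ccl5 (RANTES) had the largest change of the members. Ccl5 (ENSMUSG00000035042.2, GRCm38 chromosome 11, 83525778 to 83530518, minus strand, protein coding) was counted 32 and 45 times in NC 1 and NC 2 and 142 and 194 times in KO 1 and KO 2, or 9.99, 12.4, 43.1 and 53.3 TPM. Both KO libraries stood above both NC libraries, and KO 2 was the highest. Ccl5 rose by 2.04 on the log2 scale (SE 0.22, 95% interval 1.60 to 2.49, adjusted p = 4.10e-08), a 4.12-fold difference (3.02 to 5.61). Of all genes tested, 168 had a larger log2 fold change. Ccl5 went from 11.3% and 14.9% of the summed TPM of the T-cell members in NC to 28.4% and 33.6% in KO.

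Ccl17 and Ccl22, the ligands of CCR4, were the lowest T-cell members. Ccl17 (ENSMUSG00000031780.2, chromosome 8, 94810453 to 94812036, plus strand) was counted 11 and 8 times in NC 1 and NC 2 and 27 and 33 times in KO 1 and KO 2, or 3.73, 2.39, 8.80 and 9.94 TPM, with no overlap between the groups. Its log2 fold change was 1.56 (SE 0.43, 95% interval 0.67 to 2.45, adjusted p = 0.00569). At this depth the exact Poisson interval of the NC 1 count was 5.49 to 19.7 and overlapped that of KO 1, 17.8 to 39.3. That of NC 2, 3.45 to 15.8, did not. Such intervals cover counting error only, since PCR copies were not separated. The call was lost with DESeq2 (adjusted p = 0.0626), without NC 2 (log2 fold change 1.21, adjusted p = 0.0861) and without KO 2 (1.42, adjusted p = 0.0733).

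Ccl22 (ENSMUSG00000031779.3, chromosome 8, 94745590 to 94751699, plus strand) had 0 counts in NC 1 and NC 2 and 2 and 6 in KO 1 and KO 2, and fell under the filter. A count of 0 allows up to 3 counts, or 0.259 and 0.216 CPM in NC 1 and NC 2, and KO 1 was itself within that limit, so no fold is given. At 0.09 and 0.25 TPM in KO, Ccl22 was far below Ccl17 in the same libraries.

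Cxcl10, an interferon-inducible CXCR3 ligand, was 36.0 and 34.0 TPM in NC 1 and NC 2 and 56.1 and 52.4 TPM in KO 1 and KO 2 (ENSMUSG00000034855.13, chromosome 5, 92346638 to 92348889, minus strand). The lower KO library stood above the higher NC library by more than the gap within either pair. It rose by 0.57 on the log2 scale (SE 0.11, 95% interval 0.34 to 0.80, adjusted p = 0.000208), a smaller change than that of Ccl5. The ratio of Ccl5 to Cxcl10 TPM was 0.278 and 0.364 in NC and 0.768 and 1.02 in KO. The other CXCR3 ligands Cxcl9 and Cxcl11, named after their values were seen, fell under the filter. In NC 1, NC 2, KO 1 and KO 2, Cxcl9 had 3, 0, 0 and 3 counts and Cxcl11 had 2, 3, 8 and 13. Exons of Cxcl10 share 133 bases with Art3 on the other strand, and Art3 had 0 to 2 counts.

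Cxcl16, the CXCR6 ligand, was 38.6 and 34.2 TPM in NC and 43.6 and 42.6 TPM in KO (ENSMUSG00000018920.11, chromosome 11, 70453983 to 70459984, minus strand). Its groups did not overlap, but its change of 0.12 on the log2 scale (SE 0.10, 95% interval -0.073 to 0.32, adjusted p = 0.327) did not pass. The interval allows a rise of up to 1.25-fold. RSEM assigned fractional counts here (662.1, 783.1, 823.7 and 843.9), and 552 of its 3021 exon bases overlap Zmynd15 on the other strand, which had 43.9 to 66.3 counts.

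Cx3cl1 was the highest member in KO and, with both cell classes as targets, is given on its own. Cx3cl1 (ENSMUSG00000031778.13, chromosome 8, 94772009 to 94782427, plus strand) was 52.7 and 58.3 TPM in NC and 89.2 and 94.99 TPM in KO, from 1547 to 2972 counts. It rose by 0.60 on the log2 scale (SE 0.092, 95% interval 0.41 to 0.79, adjusted p = 1.15e-05), a 1.51-fold difference. With the most counts of the members, it also had the smallest standard error among them.

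Ccl2, the main CCR2 ligand, rose and its neighbour Ccl7 was hardly detected. Ccl2 (ENSMUSG00000035385.5, chromosome 11, 82035571 to 82037453, plus strand) was 35.3 and 34.2 TPM in NC and 67.7 and 61.8 TPM in KO, on 222, 248, 467 and 455 counts. Its change on the log2 scale was 0.89 (SE 0.12, 95% interval 0.64 to 1.14, adjusted p = 2.54e-06), the largest rise of the myeloid members. Ccl7 (ENSMUSG00000035373.2, chromosome 11, 82045712 to 82047525, plus strand), also a CCR2 ligand, starts 10.1 kb from Ccl2 and had 0, 0, 1 and 1 counts, so it was not tested and all 4 libraries were within the limit that a count of 0 allows.

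Cxcl1 and Cxcl5, both CXCR2 ligands, moved in opposite directions. Cxcl1 (ENSMUSG00000029380.11, chromosome 5, 90891241 to 90893115, plus strand) was 32.7 and 32.0 TPM in NC and 46.9 and 40.8 TPM in KO, a log2 fold change of 0.37 (SE 0.13, 95% interval 0.11 to 0.63, adjusted p = 0.0204). This was the least stable call of the members. It was lost with DESeq2 (adjusted p = 0.0955), in the filtered TPM fits with limma (0.0619 and 0.0645), without NC 2 (log2 fold change 0.31, adjusted p = 0.13) and without KO 1 (0.30, adjusted p = 0.116).

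Cxcl5 (ENSMUSG00000029371.7, chromosome 5, 90759360 to 90761624, plus strand) was 64.7 and 49.5 TPM in NC and 34.6 and 35.8 TPM in KO. The NC libraries differed from each other, by 0.46 in log2 CPM, and both stood above KO. Its log2 fold change was -0.75 (SE 0.12, 95% interval -0.99 to -0.51, adjusted p = 1.54e-05), and it was -0.51 without NC 1 and -0.96 without NC 2. The ratio of Cxcl5 to Cxcl1 TPM was 1.98 and 1.54 in NC and 0.737 and 0.879 in KO. Their sum, as the CXCR2 ligands among the members, was 97.5 and 81.5 TPM in NC and 81.5 and 76.6 TPM in KO. In CPM it was 107 and 82.0 in NC and 71.0 and 71.5 in KO, so the size of the difference depends on the scale.

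**Figure D2:**
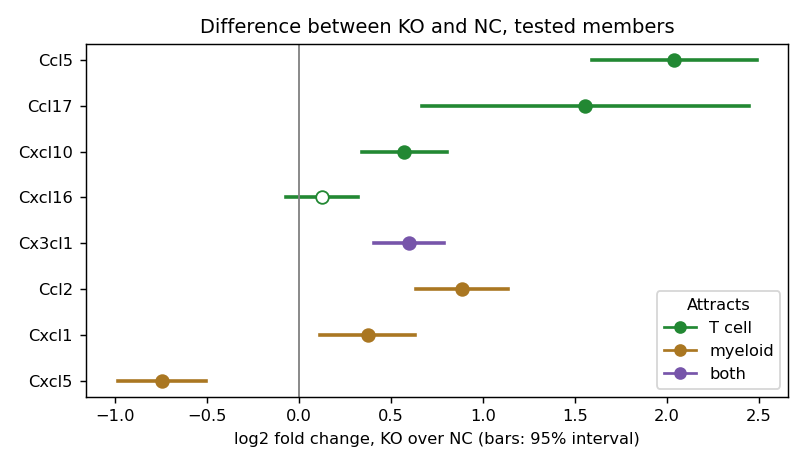
Log2 fold change of KO over NC (x axis) for the 8 tested chemokine genes, with 95% intervals as bars, colours for the class of attracted cell and an open point for the gene that did not pass. Ccl5 lies furthest to the right at 2.04, Cxcl5 is the only one left of 0, at -0.75, and the interval of Cxcl16 spans 0.

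By class, 3 of 4 tested T-cell members rose and none fell, 2 of 3 tested myeloid members rose and 1 fell, and the 1 member of both classes rose, where 19.7% of all genes tested were higher and 18.2% lower. The summed TPM of the T-cell members was 88.3 and 83.0 in NC and 151.6 and 158.4 in KO. For the myeloid members it was 132.8 and 115.7 in NC and 149.3 and 138.5 in KO. The T-cell sum was thus 0.665 and 0.718 of the myeloid sum in NC and 1.02 and 1.14 of it in KO. On the CPM scale, which weights long transcripts more, the KO over NC ratio of the T-cell sum was 1.34 in place of 1.81. That of the myeloid sum was 0.936 in place of 1.16, so the direction for the myeloid members depends on the scale. The scales also differed within a single gene, since the ratio for Cx3cl1 was 1.51 in CPM and 1.66 in TPM. These sums cover the members only. They leave out the other chemokine genes described below, of which 3 rose and 3 fell, Cxcl3 and Ppbp among the latter. The shift between classes was not tested.

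**Figure D3:**
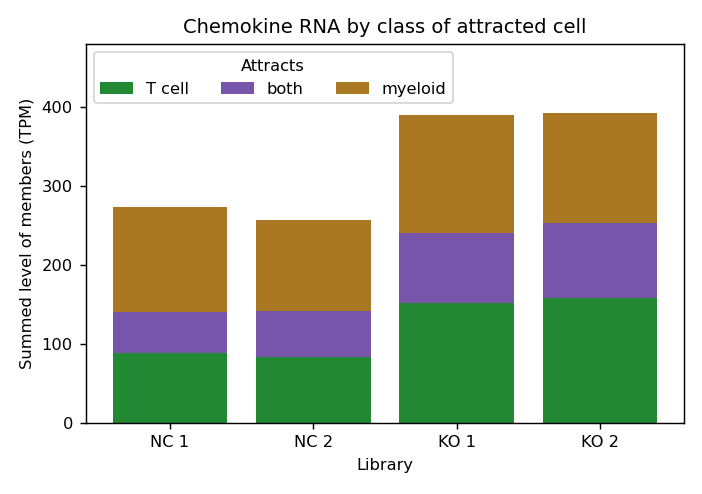
Summed TPM of the member chemokine genes (y axis) in each library (x axis), split by class of attracted cell. The total is 273.8 and 257 TPM in NC and 390.1 and 391.9 TPM in KO, with the T-cell part growing from 88.3 and 83.0 to 151.6 and 158.4 TPM.

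Members that lie close together on a chromosome were compared with their neighbours, a view chosen after the values were seen. On chromosome 5, Cxcl5 and Cxcl1 belong to 1 cluster of CXC genes and start 131.9 kb apart. The expressed chemokine genes in the 35.2 kb after Cxcl5 were lower in KO like Cxcl5: Ppbp (log2 fold change -1.08, SE 0.11), Cxcl3 (-0.83, SE 0.099) and Cxcl15 (-1.75, SE 0.12), with adjusted p from 5.46e-12 to 2.68e-07. Cxcl2, 12.6 kb from Cxcl1, was higher like Cxcl1 (0.46, SE 0.12, adjusted p = 0.00396). Of the tested genes here that encode no chemokine, Mthfd2l was lower (-0.68, SE 0.16, adjusted p = 0.00168) and the predicted gene Gm43085 did not pass (-1.20, SE 0.50). Cxcl3, a CXCR2 ligand, was the highest of all these, at 173.2 and 192.2 TPM in NC and 119.7 and 95.3 TPM in KO.

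These genes resemble one another in sequence, so reads could be shared between them, although their deposited counts were whole numbers. The kappaB-like match of Cxcl1 was also present in the windows of Cxcl2 and Cxcl3, which moved in opposite directions. The stretches are shown 5′ to 3′ on the plus strand, with the match in capitals, to compare the flanks.
Cxcl1, chr5:90891164-90891193: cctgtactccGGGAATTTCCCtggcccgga
Cxcl2, chr5:90903792-90903821: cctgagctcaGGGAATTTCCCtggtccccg
Cxcl3, chr5:90786018-90786047: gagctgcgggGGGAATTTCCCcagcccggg
The match began 71, 97 and 73 bases before the RefSeq start of Cxcl1, Cxcl2 and Cxcl3. No kappaB-like match was found in the windows of Ppbp or Cxcl15.

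On chromosome 8, Ccl22, Cx3cl1 and Ccl17 follow one another within 64.9 kb. Cx3cl1 and Ccl17 rose, Ccl22 had counts only in KO, and the tested genes beside them differed among themselves. Ciapin1 (log2 fold change -0.43, SE 0.097) and Polr2c (-0.42, SE 0.094) were lower, Dok4 was higher (0.47, SE 0.15), and Coq9, Pllp, Arl2bp and the predicted gene Gm45767 did not pass. Near Ccl5 on chromosome 11, Ccl9 was higher on 7 to 37 counts (log2 fold change 1.37, SE 0.45, adjusted p = 0.0177), and Taf15 (0.055, SE 0.13) and Mmp28 (0.69, SE 0.41) did not pass.

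**Figure D4:**
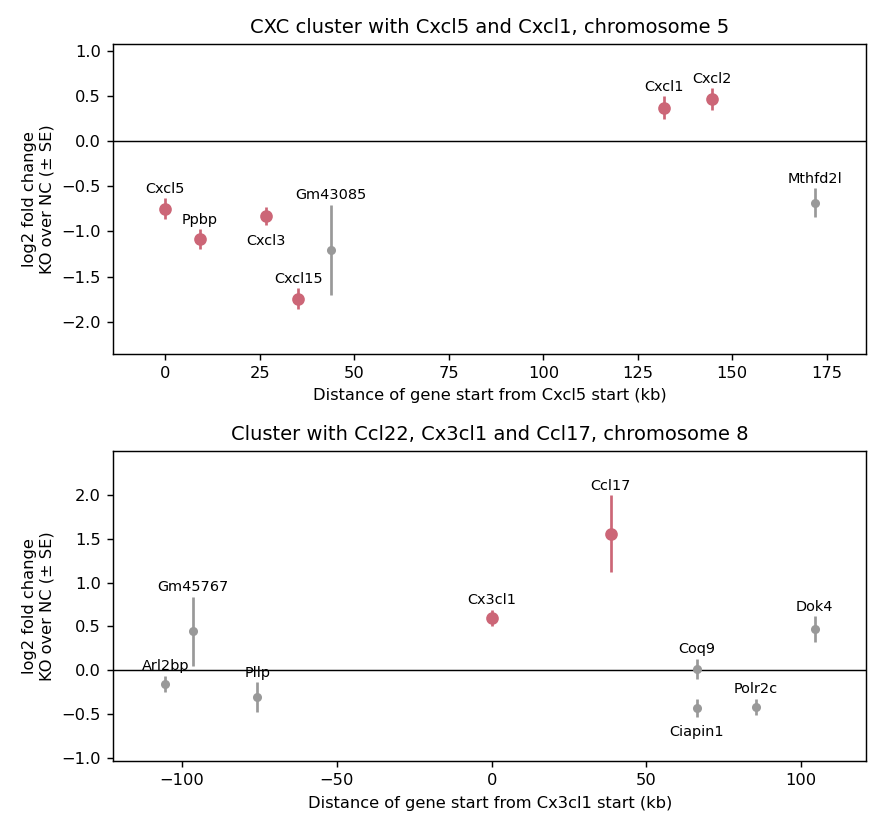
Log2 fold change of KO over NC (y axis, bars ± SE) against the distance of each gene start in kb (x axis). The top plot holds the tested genes within 100 kb of Cxcl5 or Cxcl1 on chromosome 5. The bottom plot holds those within 100 kb of Ccl22, Cx3cl1 or Ccl17 on chromosome 8. Chemokine genes are red and others grey, and Cxcl10, further along chromosome 5, is not drawn. In the top plot Cxcl5, Ppbp, Cxcl3 and Cxcl15 lie below 0 and Cxcl1 and Cxcl2 above it, and in the bottom plot Cx3cl1 and Ccl17 lie above 0.

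Most of the remaining chemokine genes were silent, but as a list they had a larger summed level in NC than the members. Their sum was 366.8 and 389.8 TPM in NC and 309.2 and 288.4 TPM in KO, so it was lower in KO. For the members it was 273.8 and 257 TPM in NC and 390.1 and 391.95 TPM in KO. Of 31 other chemokine symbols (35 entries in the files, since some symbols repeat), 22 entries had no count, and 8 were tested: 3 rose, 3 fell and 2 did not pass. Ccl27a rose, from 33.6 and 23.8 TPM in NC to 47.9 and 62.7 TPM in KO (log2 fold change 0.78, SE 0.17, adjusted p = 0.000788). The list median was 0.34 over 8 genes, against -0.0037 over all genes tested. It turned to -0.19 and -0.21 in the filtered TPM fits, which tested 9 genes of the list. Cxcl12, a broad lymphocyte attractant, had no count in any library.

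The receptors named above were at or near 0. Ccr2 and Cx3cr1 had no count, Ccr4 had 2 counts in KO 2 only, Cxcr6 had 4 in KO 2 only, Cxcr3 had 4, 4, 1 and 0, and Cxcr2 had 0, 0, 4 and 7 in NC 1, NC 2, KO 1 and KO 2. Of 23 receptor genes 3 were tested, and 1 rose: Ccrl2, a receptor that binds chemerin without signalling like a classical chemokine receptor, counted 34 and 50 times in NC 1 and NC 2 and 98 and 88 times in KO 1 and KO 2 (log2 fold change 1.07, SE 0.24, adjusted p = 0.000927). The list median of 0.42 rests on 3 genes, and it was 0.91 without NC 1 and 0.76 without NC 2. Fits without a filter took the median over 10 receptors instead, at 2.09 on counts and 0.13 on log2(TPM + 1).

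Genes that act on the proteins were compared next. Of 8 proteases that cut or shed chemokines, 4 were tested, 2 rose and 1 fell, with a list median of 0.32. Adam17, a sheddase of Cx3cl1, rose (log2 fold change 0.47, SE 0.12, adjusted p = 0.00228), whereas Adam10, the constitutive sheddase of Cx3cl1 and Cxcl16, chosen with its value known, did not pass (0.18, SE 0.10, adjusted p = 0.164). Mmp9 rose (0.58, SE 0.13) and Mmp14, the highest of the list, fell (-0.24, SE 0.095, adjusted p = 0.0484). Dpp4, which trims Cxcl10, Ccl5 and Ccl22, had no count. Of 10 proteoglycan cores that can hold chemokines at the cell surface, 6 were tested and 2 rose, Gpc3 (2.74, SE 0.26) and Sdc4 (0.55, SE 0.095), with a list median of 0.21. Gpc1, the highest of that list, did not pass (0.15, SE 0.090, adjusted p = 0.186).

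Among 26 inducers and regulators of chemokine genes, 20 were tested, 7 rose, 3 fell and 10 did not pass, with a list median of 0.086. RNA of the inducing cytokines Tnf, Il1a, Il1b, Il6, Ifng and Ifnb1 had at most 5 counts in any library. Nfkbia, the NF-kB inhibitor and target gene, rose (log2 fold change 0.84, SE 0.10, adjusted p = 2.21e-07), as did Stat3 (0.64, SE 0.092) and Cebpb (0.57, SE 0.11). Nfkb1, an NF-kB subunit, fell (-0.51, SE 0.098, adjusted p = 0.000167). Tnfrsf1a, a receptor for TNF and the highest of the list, did not pass (0.021, SE 0.091, adjusted p = 0.879).

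The genes whose pattern over the 4 libraries was most like that of Ccl5, by Euclidean distance of centred log2 CPM, were Osmr (distance 0.19), Plekhg6 (0.19) and Aplp1 (0.21). Those most like Cxcl5 were Coprs (0.064), Rnaseh1 (0.087) and Ndufb2 (0.11). With 4 libraries, such a distance is a description only.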

How the data were processed

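RNA of 4 Hepa1-6 libraries (NC 1, NC 2, KO 1, KO 2) was analysed. The submitters' processing notes name STAR, RSEM, DESeq2 and the builds GRCm38 and mm10, without versions; the annotation release and strand setting are not given in the sources used here. The authors deposited estimated counts (expected counts, not normalised), TPM and FPKM per gene and library, per the file headers, not pooled. RSEM divides ambiguous reads between genes, so close paralogs and, without a stated strand setting, antisense neighbours can exchange counts. The FPKM values deposited by the authors were not used.

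Expected counts were rounded. Genes kept by filterByExpr (12510, holding 99.87% to 99.91% of each library's counts) were scaled by TMM and tested with edgeR 4.0.16 quasi-likelihood (R 4.3.3), group as the only term, Benjamini-Hochberg adjusted over all genes tested, threshold 0.05, and the code was tested on simulated data. Unless another tool is named, every adjusted p is from that test. Standard errors were derived from the F statistic, in which the spread shared over genes carried 25.8 prior degrees of freedom. Levels are compared between genes in TPM. With 2 libraries per group the SD is poorly known.

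Members, lists and tests were chosen with earlier results of these data known. The rule for named genes was: all members, per related list up to 4 genes that passed 0.05, by lowest p, and the gene with the highest mean TPM; the 3 genes most like Ccl5 and Cxcl5 (mean log2 CPM of at least 2, predicted genes left out); and Acvr2a. Genes near the members, Cd68, Col1a1, Adam10 and genes given by counts at or near 0 fall outside that rule and were picked with their values known. Coordinates are GENCODE M21 on GRCm38, 1-based, for all 10 members, and promoter sequences are RefSeq, GRCm38.p6. Protein sequence was not used here. Alternatives were DESeq2 1.42.0, upper-quartile scaling, no filter, limma 3.58.1 on log2(TPM + 1) or log2(TPM + 0.1) with mean TPM of at least 0.5 or no filter, leaving out each library, and the replicate number as a block. 1 receptor gene is not reported here.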

Additional observations from a re-analysis of the deposited data

How the results depend on the processing

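The direction of the 8 tested members was the same under the 11 alternatives with a test. In the unfiltered fit of log2(TPM + 1) with limma, 0 of 20640 genes and 0 of the 10 members passed, in either direction, with 4506 genes and 8 members at an unadjusted p under 0.05, while DESeq2 called 3217 genes; the members' adjusted p there ran from 0.0754 (Ccl5, Ccl2) to 0.239 (Cxcl16) for the 8 members tested on counts. Apart from that fit, Ccl5, Cxcl10, Ccl2, Cx3cl1 and Cxcl5 passed under each alternative, Ccl17 failed under 3 and Cxcl1 under 5. Filtered TPM fits called 1646 genes (1133 higher, 513 lower) with a pseudocount of 1 and 1592 (1099 higher, 493 lower) with 0.1, against 4741 (2459 and 2282); the cause was not tested. The calls were higher in KO for 51.9% of genes in the count fit and 68.8% and 69.0% in these. The CPM scale moved the KO over NC ratio of the Cx3cl1 level to 1.51 from 1.66.

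The list medians also moved, and the cause was not tested. The genes behind a median differed between some fits. The main fit tested 8 other chemokine genes, 3 receptors, 4 proteases, 6 proteoglycan cores and 20 regulators. Both fits without a filter tested 13, 10, 6, 7 and 23 of these. The filtered TPM fits tested 9 other chemokine genes and 2 receptors. With no filter on low counts the medians were 0.45 (other chemokine genes), 2.09 (receptors), 0.18 (proteoglycan cores) and 0.15 (regulators). In the filtered TPM fits with pseudocounts of 1 and 0.1 they were -0.19 and -0.21 (other chemokine genes), 0.43 and 0.46 (proteases), and 0.25 and 0.27 (proteoglycan cores), with 0.68 for the receptors and 0.12 for the regulators at 0.1. Unfiltered TPM gave 0.23 (other chemokine genes), 0.13 (receptors), 0.24 (proteases) and 0.23 (proteoglycan cores), and upper-quartile scaling 0.24 (proteoglycan cores). Leaving out 1 library gave 0.23 to 0.49 (other chemokine genes), 0.44 to 0.91 (receptors), 0.26 to 0.39 (proteases), 0.21 to 0.24 (proteoglycan cores) and 0.062 to 0.11 (regulators).

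The replicate numbers are shared by the groups but nothing says they pair the libraries: deviations of same-numbered libraries correlated at -0.012 across genes. With the number as a replicate block, 5006 genes passed, and 7 of 8 members, 6 higher and 1 lower. Depth limits Ccl17, Ccl22 and Ccl7; the last pair fell under the filter on low counts and did not pass in either fit without a filter.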
